A study of Rattus norvegicus with 2 samples.

Results

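The genes described are 8 genes of lactate production and transport: the lactate dehydrogenases Ldha, Ldhb and Ldhd, the monocarboxylate transporters Slc16a1, Slc16a3 and Slc16a7, and the transporter chaperones Bsg and Emb. They were looked up in a list of chromatin peaks, and every peak of any class that the annotation names after a member was taken. This gave 18 of 28706 peaks, which belonged to 5 of the 8 genes. The peaks come from chromatin immunoprecipitation and sequencing (ChIP-seq) of myocardium from male Wistar rats whose abdominal aorta had been tied to a 0.7 mm wire above the renal arteries, a surgery that loads the heart with pressure. The series title names lactylation of lysine 18 on histone H3 (H3K18la), and the antibody, given in the labels by vendor and catalogue number, was taken to be against this mark. The labels list the ChIP library and an input library of the same model, and values of the ChIP library alone were analysed. The labels of both samples state no genotype, age, time after surgery, number of animals or vagal stimulation. With 1 library there is no comparison between groups, no replicate error and no test, and every value below describes this library.

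Lactate dehydrogenase converts pyruvate and lactate into each other. The enzyme is a tetramer of subunits from Ldha, abundant in fast glycolytic tissue, and Ldhb, abundant in heart, where lactate is taken up from the blood and burnt as fuel. Ldhd encodes an unrelated mitochondrial enzyme that oxidises D-lactate. Lactate crosses membranes with a proton through monocarboxylate transporters: MCT1 (Slc16a1) in most tissues including heart muscle, MCT4 (Slc16a3) in cells that export much lactate, and MCT2 (Slc16a7), a carrier of high affinity. The glycoprotein basigin (Bsg) brings MCT1 and MCT4 to the cell surface, and its relative embigin (Emb) does so for MCT2. Lactate is also the source of the lactyl group on histones. The members other than Ldhd, which acts on D-lactate, handle the substrate of the mark that was mapped.

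Of the 8 genes, 5 had a peak (Ldha, Ldhb, Ldhd, Slc16a1 and Bsg), against 27.1% of 23154 protein-coding genes. A peak of the promoter class was assigned to 3 of 8 (Ldha, Ldhb and Slc16a1), against 9.87% of protein-coding genes. With any class of peak centred at most 1000 bp from the transcription start site (TSS), 4 of 8 were marked, Bsg being the addition, against 17.1%. Among peaks with a −log10 q of at least 5, any peak remained at 3 of 8 (Ldhb, Ldhd and Bsg; background 14.4%) and a promoter-class peak at 1 of 8 (Ldhb; background 4.23%). Among peaks of at least 4-fold enrichment, the 5 genes each had one (background 19.7%), and 2 of 8 (Ldha and Ldhb) had one of the promoter class (background 5.37%). No peak carried the name of Slc16a3, Slc16a7 or Emb. The members were not drawn at random, so the counts are a description beside the background.

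The promoters shown are those of the 4 genes with a peak centred at most 1000 bp from the TSS. Each line gives the 250 bases before the RefSeq start of the gene in assembly GRCr8, 5′ to 3′ on the gene's strand, and capitals mark ACGTG on either strand, the core of the hypoxia response element through which hypoxia-inducible factors act.
Ldha (chr1:106507842-106508091, + strand): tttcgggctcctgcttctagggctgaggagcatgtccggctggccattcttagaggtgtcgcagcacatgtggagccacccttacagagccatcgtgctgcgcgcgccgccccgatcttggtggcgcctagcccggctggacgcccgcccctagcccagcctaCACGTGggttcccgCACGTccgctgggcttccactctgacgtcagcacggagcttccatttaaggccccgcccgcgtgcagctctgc
Slc16a1 (chr2:194812410-194812659, + strand): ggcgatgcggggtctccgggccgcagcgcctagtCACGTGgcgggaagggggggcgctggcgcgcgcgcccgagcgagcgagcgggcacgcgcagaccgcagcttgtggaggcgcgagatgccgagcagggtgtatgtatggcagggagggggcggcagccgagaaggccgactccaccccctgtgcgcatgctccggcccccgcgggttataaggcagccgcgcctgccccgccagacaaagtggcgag
Bsg (chr7:10651006-10651255, - strand): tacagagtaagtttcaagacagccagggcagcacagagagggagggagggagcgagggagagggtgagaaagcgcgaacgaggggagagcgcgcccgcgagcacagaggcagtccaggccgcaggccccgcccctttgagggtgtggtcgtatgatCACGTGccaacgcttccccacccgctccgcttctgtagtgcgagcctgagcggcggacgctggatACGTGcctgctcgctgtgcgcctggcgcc
Ldhb (chr4:177177409-177177658, - strand): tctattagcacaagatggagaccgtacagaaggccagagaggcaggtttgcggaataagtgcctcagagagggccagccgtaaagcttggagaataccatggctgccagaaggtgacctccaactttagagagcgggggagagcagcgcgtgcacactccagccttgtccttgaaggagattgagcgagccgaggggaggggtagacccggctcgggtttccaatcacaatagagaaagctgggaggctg

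All 8 members had a RefSeq promoter window. The letters ACGTG, or their complement, stood in the window of 5 members (Ldha, Slc16a1, Bsg, Ldhd and Slc16a7), against 17.6% of 19005 protein-coding promoters of the same length. The share was 23.8% in promoters of genes marked within 1000 bp of the TSS, the class of 4 members, and 16.4% in the others. The E-box CACGTG, which reads the same on both strands and so holds an ACGTG on each, stood in Ldha, Slc16a1 and Bsg, against 6.38% of promoters. Ldha carried it from 87 to 82 bases before the start, with a further ACGTG on the other strand from 73 to 69 bases. In Slc16a1 the E-box ran from 216 to 211 bases before the start, and in Bsg from 94 to 89. Bsg had another ACGTG from 29 to 25 bases. Ldha alone of the 8 held the cAMP response element TGACGTCA, from 51 to 44 bases before the start, a motif in 2.03% of promoters. The GC box GGGCGG stood in Ldha, Slc16a1, Bsg and Emb (40.3% of promoters) and the TATA motif TATAAA in no member (12.3% of promoters). All motifs were searched on both strands. A match is a description of these letters and says nothing of a bound factor.

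Base composition differed among the members. G+C was 66.4% in Ldha, 74.0% in Slc16a1, 66.4% in Bsg and 56.4% in Ldhb, the 4 genes with a peak beside the TSS. It was 72.0% in Emb, 54.0% in Slc16a3, 52.8% in Ldhd and 47.2% in Slc16a7. The groups overlapped, since Emb, with no peak, was second only to Slc16a1. The ratio of observed to expected CpG was 0.808 in Ldha, 0.985 in Slc16a1, 0.85 in Bsg and 0.529 in Ldhb. It was 0.725 in Emb, 0.432 in Slc16a7, 0.346 in Ldhd and 0.281 in Slc16a3. Over all protein-coding promoters, the median G+C was 62.4% in 3259 genes marked within 1000 bp of the TSS and 52.8% in the 15746 others, and the median CpG ratio was 0.772 and 0.437.

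**Figure D1:**
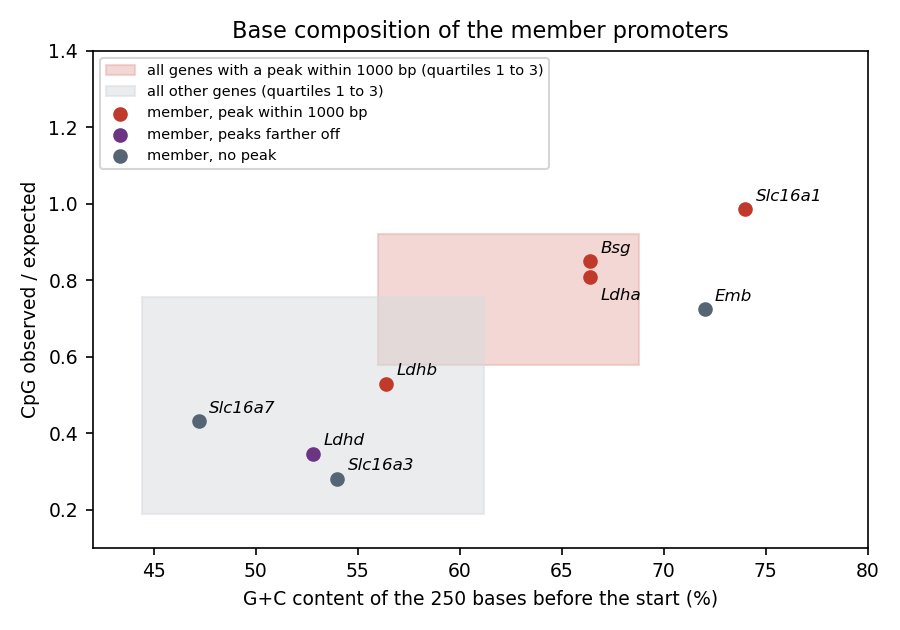
Base composition of the 250 bases before the RefSeq start of each member, with G+C content (%) on the x axis and the ratio of observed to expected CpG on the y axis. Points are single genes coloured by the distance of their peaks, and boxes span quartiles 1 to 3 of all protein-coding promoters with and without a peak within 1000 bp. Emb sits among the G+C-rich members at 72.0% although no peak carried its name.

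Fold enrichment is the authors' ratio of each peak to the caller's local background, and q its false discovery rate. The 18 peaks had a median fold enrichment of 4.16, with a range of 2.73 to 7.38, and the median of all peaks was 4.13. Of the 18, 11 lay above that median. They comprised 10 intron, 5 intergenic and 3 promoter-class peaks, and none in the exon or termination site class. Only 1 Ldhd peak and the Bsg peak exceeded the upper quartile of all peaks, 4.79.

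**Figure D2:**
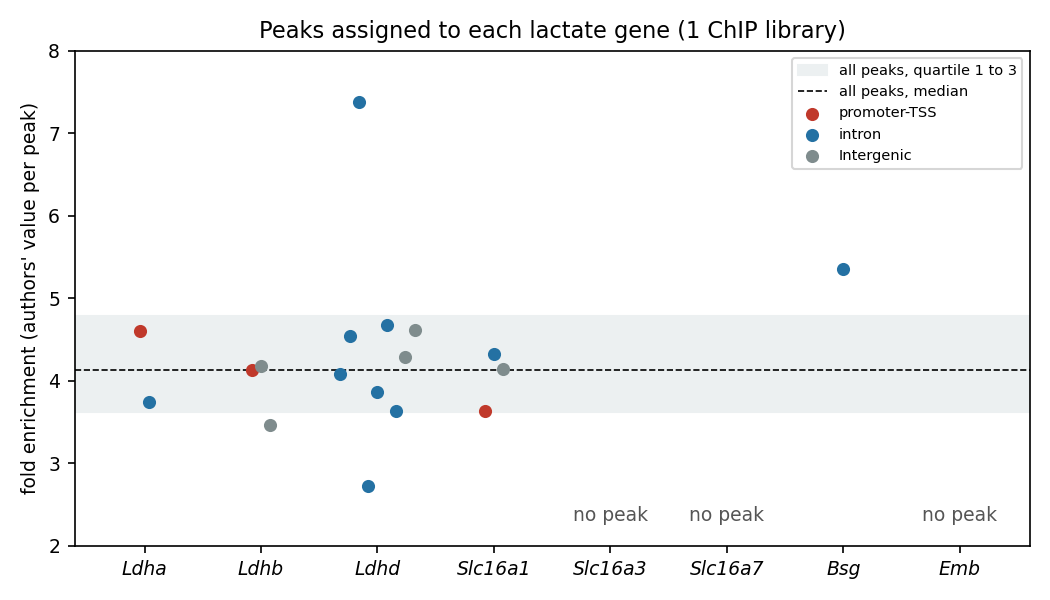
Fold enrichment of every peak assigned to the 8 genes (y axis, the authors' ratio per peak), with 1 point per peak in genome order and colour by annotated class. The grey band spans quartiles 1 to 3 of all 28706 peaks (3.62 to 4.79) and the dashed line is their median. The Ldhd peak at 7.38-fold and the Bsg peak at 5.35-fold stand above the band.

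Ldha, the subunit that favours lactate formation, had 2 peaks, 1 on each side of the TSS. The promoter peak (chromosome 1, 102899456 to 102899843 in rn6) had 4.60-fold enrichment and a −log10 q of 4.55, and 69.2% of all peaks had a lower fold. Its centre lay 637 bp upstream. The other peak (102900771 to 102901225) was in intron 1 of 7, with its centre 712 bp downstream, at 3.74-fold and a −log10 q of 4.08, and 32.4% of peaks were lower. The 927 bp between them, which hold the TSS, had no peak. Within 50 kb of the TSS these were the only peaks of any name.

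Ldhb, the subunit that prevails in heart, had a promoter peak with no partner downstream. This peak (chromosome 4, 176720285 to 176720673) had its centre 467 bp upstream of the TSS, at 4.13-fold and a −log10 q of 5.25, the highest q support of the 3 promoter-class peaks. Its fold was at the middle of the list, with 50.1% of peaks lower. A pair of intergenic peaks stood further upstream. The nearer (176731358 to 176731572), 11.5 kb away, had 4.18-fold but a −log10 q of only 3.31, and the farther (176731776 to 176732102), 11.9 kb away, had 3.46-fold and 2.04. Ordered by fold the 11.5 kb peak came first for Ldhb, and ordered by q the promoter peak did.

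Slc16a1, the transporter MCT1, repeated the arrangement at Ldha. Its promoter peak (chromosome 2, 207107804 to 207108131) was centred 585 bp upstream of the TSS at 3.64-fold, with a −log10 q of 3.33. Its intron 1 peak (207109125 to 207109443) was centred 732 bp downstream at 4.33-fold, with a −log10 q of 4.15. Here the downstream peak had the higher fold, and at Ldha the upstream one did. The peaks were 993 bp apart and left the TSS uncovered. An intergenic peak (207133239 to 207133457) lay 24.8 kb downstream at 4.14-fold. Within 50 kb of the TSS stood 3 further peaks named for a U6 small nuclear RNA, the strongest at 5.81-fold, above every peak named for Slc16a1. The fold and q of the promoter peak were shared exactly by 409 peaks of the list, among them a Ldhd intron peak, so the order within such sets is not resolved.

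Bsg, the chaperone of MCT1 and MCT4, had a single peak, the strongest of those beside a member's TSS. It lay in intron 1 of 7 of one transcript (chromosome 7, 12881910 to 12882440), at 5.35-fold and a −log10 q of 6.78. Its centre was 578 bp downstream of the assigned TSS, which belongs to another transcript. Of all peaks, 86.2% had a lower fold. No other peak of any name stood within 50 kb. Unlike the other 3 genes with a peak beside the TSS, Bsg had no peak of the promoter class, so a count of that class leaves it out.

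These 6 peaks beside a TSS were chosen by position, with a centre at most 1000 bp away. Their widths ran from 319 to 531 bp, their folds from 3.64 to 5.35, and none covered its assigned TSS. Of 3954 protein-coding genes marked within this distance, 38.9% had a peak that covered the TSS. Peak centres stood on both sides in 19.2%, only upstream in 27.9% (as at Ldhb) and only downstream in 52.9% (as at Bsg). Both sides with the TSS uncovered, as at Ldha and Slc16a1, occurred in 9.99%. Of these, 318 genes had both peaks assigned to the same TSS, with a median gap of 537.5 bp (quartiles 328.25 and 723.75), so the gaps at Ldha and Slc16a1 were above the upper quartile. Measured from the annotation's TSS, the nearest edges of the 6 peaks lay 272 to 572 bp away, farther than the 250 bases printed above. The printed windows would thus fall between or beside the peaks if the RefSeq start and the annotation's start are the same base, which was not tested across the builds.

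**Figure D3:**
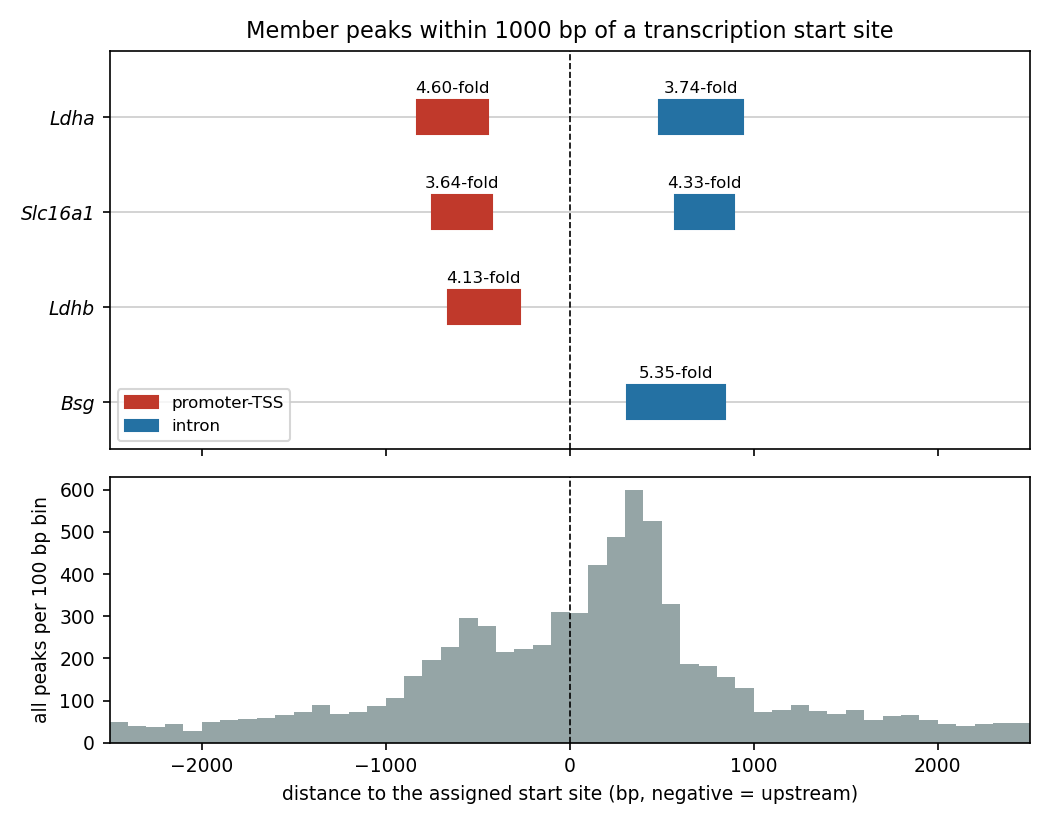
Top, the peaks of Ldha, Slc16a1, Ldhb and Bsg within 1000 bp of the TSS, drawn to scale as bars along the distance to the start site (bp) and labelled with the authors' fold enrichment. Bottom, the number of all peak centres per 100 bp bin on the same axis. The member peaks leave the start site free on both sides at Ldha and Slc16a1, while Ldhb has a peak only upstream and Bsg only downstream.

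Ldhd, the D-lactate dehydrogenase, had 9 peaks and none within 1000 bp of a TSS. Genes with any peak had a median of 2 peaks, and 8.44% of them had at least 9. The strongest Ldhd peak (chromosome 19, 43806674 to 43809290) had 7.38-fold enrichment and a −log10 q of 16.5. It ranked 435 by fold among all peaks, and at 2617 bp only 0.819% of peaks were wider. It lay 33.8 kb downstream of the assigned TSS. Flanking it within 5646 bp were peaks of 4.08-fold, 4.55-fold, 2.73-fold and 3.86-fold.

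The annotation places these 5 peaks in intron 1 of 3 of a transcript that starts at Znrf1, the neighbouring gene for a ubiquitin ligase. The name Ldhd comes from the nearer TSS, since the strongest peak is 57.7 kb from the start of Znrf1. A further 13 peaks in the same intron, from 3.18-fold to 4.63-fold, carried the name Znrf1. Without the 5 peaks, Ldhd had 4, and its strongest was 4.67-fold.

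The folds of those 4 peaks lay within quartiles 1 to 3 of all peaks (3.62 to 4.79). A pair lay in intron 10 of 10 of a transcript assigned to Ldhd, at 4.67-fold (43829910 to 43830352, 11.7 kb downstream of the TSS) and 3.64-fold (43835693 to 43835892, 6003 bp downstream). The other pair was intergenic and upstream, at 4.29-fold (43852572 to 43853061, 3879 bp) and 4.61-fold (43853265 to 43853908, 4649 bp). The upstream pair was measured from another start of Ldhd, 7142 bp from the first. The upstream peaks had a −log10 q of 6.29 and 7.19, above every promoter-class member peak and above the median of all peaks, 3.89.

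**Figure D4:**
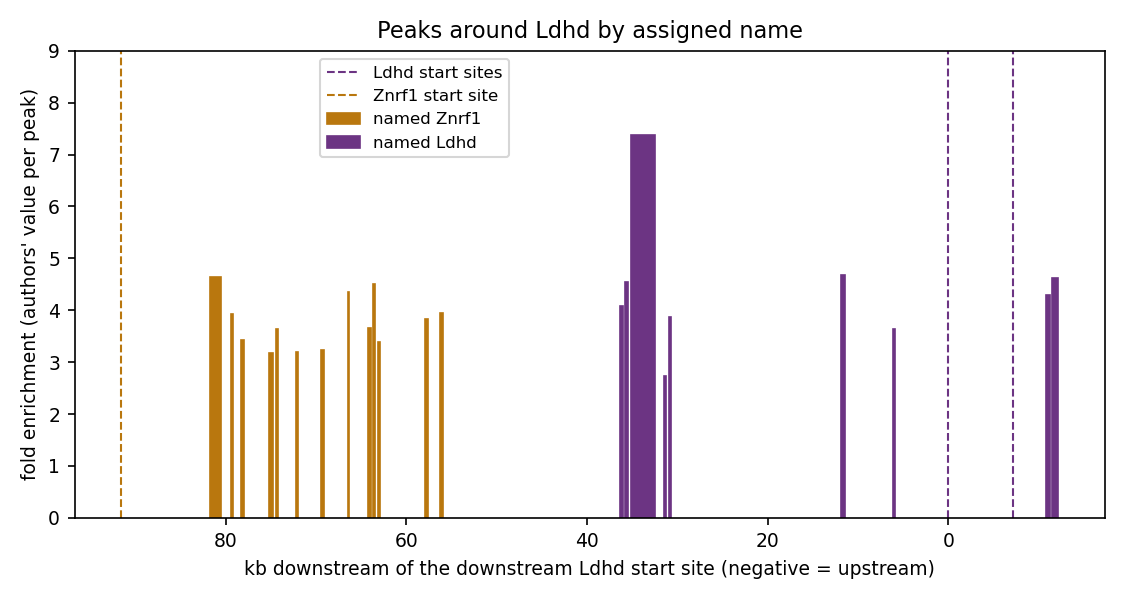
Peaks around Ldhd, with distance from the downstream Ldhd start site (kb, negative is upstream) on the x axis and the authors' fold enrichment on the y axis. Each bar is 1 peak with its width to scale, coloured by the gene name the annotation gives it, and dashed lines are start sites. The 7.38-fold peak and its 4 neighbours share an intron with the 13 peaks named Znrf1.

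Slc16a3, the transporter MCT4, had no assigned peak, but its surroundings limit that statement. In the GRCr8 gene table it overlaps Csnk1d, a casein kinase gene. In rn6, 3 peaks carried the name Csnk1d: 5.21-fold (chromosome 10, 110181262 to 110182294), 3.40-fold (110182718 to 110183061) and 3.81-fold (110202583 to 110203096). The first lay 513 bp downstream of a Csnk1d TSS, and the second 481 bp upstream of a different Csnk1d TSS. The third, intergenic in the annotation and 20.4 kb upstream, lay on the side of Csnk1d away from Fasn. In GRCr8 order Slc16a3 stands between Fasn and Csnk1d, though its position in rn6 was not analysed here. On the Fasn side, the 130 kb between the last peak named for Fasn and the first named for Csnk1d held no peak of any name.

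No peak carried the name of Slc16a7, the transporter MCT2, or of Emb, the chaperone embigin. For Slc16a7, the nearest protein-coding genes in the gene table that have peaks were Mon2 and Atp23. The 3.51 Mb between their peaks held 10 peaks, named for Ppm1h, Mirlet7i, a 5S ribosomal RNA and the unnamed model AABR07057385.1, the strongest at 4.79-fold. For Emb the neighbours were Pelo and Nnt. The 5.01 Mb between their peaks held 7 peaks, named for Itga1 or a U6 small nuclear RNA, the strongest at 6.48-fold. These stretches assume the gene order of GRCr8. Ppm1h and Itga1, also protein-coding and with peaks inside the stretches, were not the neighbours found in that order. The stretches are therefore not shown to hold the members, whose position in rn6 was not analysed here. Since the sequencing depth is unknown, an absent name says only that nothing was called in this list.

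Counts within 1000 bp are by peak centre from the TSS, as above. Among enzymes upstream of lactate, 10 of 16 glycolysis genes had a peak (background 27.1%), and 6 of 16 within 1000 bp (background 17.1%). The strongest were those of the enolase Eno1 at 6.17-fold, at the promoter, of the phosphofructokinase Pfkp at 5.89-fold, 248 kb from its TSS, and of the isomerase Gpi at 5.25-fold, 3.17 kb upstream. No peak carried the names of Gapdh, Tpi1, Pgk1, Aldoc or Pgam2. Of the glucose transporters, Slc2a4 had a promoter peak of 3.38-fold and Slc2a1 none.

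Genes that decide the fate of pyruvate had peaks at 11 of 16 (background 27.1%) and within 1000 bp at 9 of 16 (background 17.1%). The strongest were of Pdha1 at 7.08-fold, 9.63 kb upstream and between genes, the catalytic subunit of pyruvate dehydrogenase that commits pyruvate to oxidation, and of Pdk4 and Pdp1, both at 5.92-fold, which encode a kinase and a phosphatase that switch this enzyme off and on. Pdhb, Dld, Pdhx, Pdk3 and Pc had no peak.

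The other carriers of monocarboxylates had peaks at 9 of 13 genes (background 27.1%) and within 1000 bp at 5 of 13 (background 17.1%). The strongest was the promoter peak of Slc16a13 at 7.14-fold (chromosome 10, 56831356 to 56832060), followed by Slc16a14 at 4.88-fold. That Slc16a13 peak was stronger than any peak beside the TSS of a member transporter. Slc16a4, Slc16a8, Slc16a12 and Slc5a8 had none. Of the other lactate dehydrogenase genes, neither Ldhc, the testis form that neighbours Ldha in the gene table, nor Ldhal6b had a peak. Nptn, a relative of basigin, had 1 peak of 3.07-fold, 1.02 kb upstream. The lactate receptor gene Hcar1 had none, and of the glyoxalases, which form D-lactate, Glo1 had 1 peak of 4.36-fold and Hagh none.

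All 6 regulators in the list had a peak (background 27.1%), and 5 of 6 within 1000 bp (background 17.1%). Epas1, which encodes the hypoxia-inducible factor HIF-2α, had 28 peaks, the strongest at 7.38-fold in intron 1, 15.5 kb downstream of the TSS. Myc followed at 5.48-fold and the nuclear receptor Esrra at 5.17-fold. These lists are short, and their shares beside the background are no evidence that lactate genes stand apart.

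**Figure D5:**
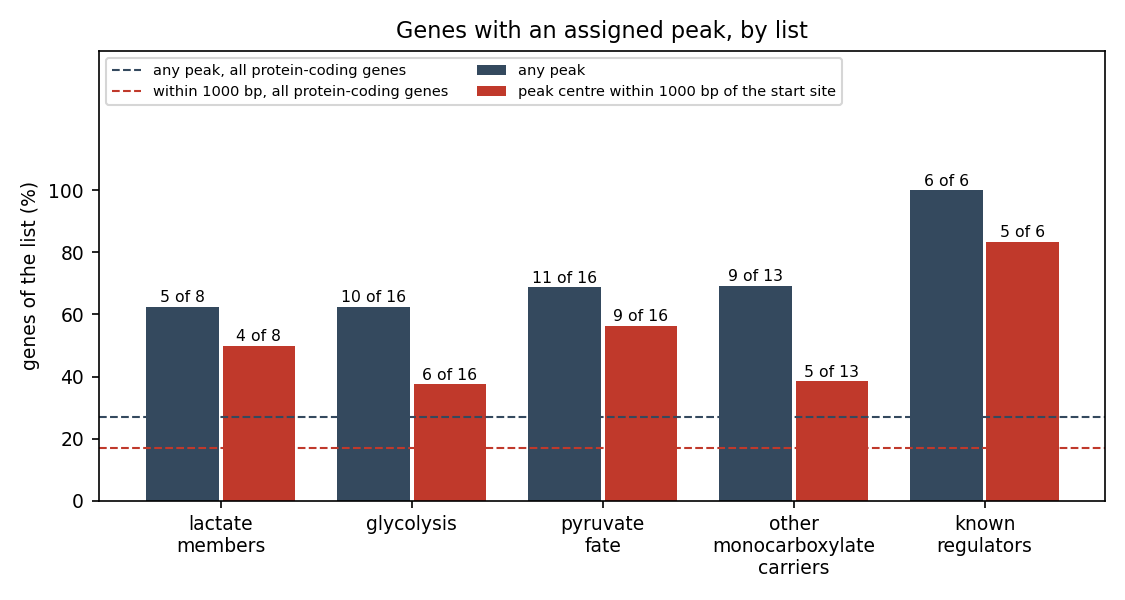
Share of genes (%) with any assigned peak and with one centred at most 1000 bp from the TSS, for the 8 lactate genes and 4 related lists, with the number of genes above each bar. Dashed lines give the same shares over all 23154 protein-coding genes (27.1% and 17.1%). The 8 genes, at 5 and 4 of 8, lie above both lines, as do the related lists.

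The labelled tissue was checked against markers by their peaks, which are not a measure of expression. Of 12 cardiomyocyte markers 9 had a peak (none at Myh6, Ryr2 or Ttn), and of 6 endothelial markers 5, beside 27.1% of all protein-coding genes. At most 1000 bp from the TSS the counts were 6 of 12 and 5 of 6, beside 17.1%. Fibroblast and immune markers had a peak at 1 of 5 each, near the share of all genes, and 3 liver markers at none. Myocardium holds several cell types, and the cell type that gave a member's peak cannot be told apart in this library.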

How the data were processed

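The data were the deposited peak list of 1 ChIP library of rat myocardium and its annotation. The submitters' processing notes list Bowtie2 and SAMtools, the peak caller MACS2, HOMER, FastQC, Trim Galore and deepTools, and build rn6; versions are not given in the sources used here. Peaks were called at q 0.05, per the file headers, and the largest q was 0.0493. The role of the input in the call is not given in the sources used here either. The authors deposited each peak's fold enrichment (a ratio), its p and q as −log10 values, and a score, a truncated multiple of −log10 q that was not used further.

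Peaks were joined by name to the annotation by HOMER, per the file headers, which gives each peak a class and the gene with the nearest TSS. TSS positions and strands were derived from these distances where a TSS had at least 2 peaks. Coordinates are 1-based rn6. Names were matched to RefSeq symbols of GRCr8 (6224 of 8094 names to a current symbol, 151 to an older one), which also gave the 23154 background genes, gene order and promoter sequences. Names left unmatched (1719) counted for no background gene, so the background shares may be too low. Python 3.11.15 and pandas 2.3.3 were used, and the matching and counting were tested on simulated data. The genes named were all members and, of each list, at most the 3 with the strongest peak and 5 without a peak. Neighbours of members (Znrf1, Csnk1d and those beside peakless members) were named after their values were seen. The members and lists were chosen with earlier results of these data known. No test was run, because 1 library allows none. The alternatives were stricter thresholds, other TSS windows, summits in place of centres, joined peaks, and peaks of any name. Depth is unknown, since the peak list holds no library totals.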

Additional observations from a re-analysis of the deposited data

How the results depend on the processing

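No paired analysis was possible because the ChIP and input libraries share a single replicate number and the input library has no values here. No replicate could be left out of 1 library. At a −log10 q of at least 5, members with any peak fell from 5 to 3 (Ldhb, Ldhd and Bsg), against 14.4% of protein-coding genes, and those with a promoter-class peak from 3 to 1 (Ldhb), against 4.23%. At that threshold Ldha and Slc16a1 had 0 peaks, Ldhb 1 and Ldhd 4, and the count of Bsg stayed at 1. At a fold of at least 4 the members with any peak remained 5 in number and Ldha had 1 peak in place of 2. With peaks under 1000 bp apart joined, Ldha had 1 region and Ldhd 5. With peaks of any name within 50 kb, Slc16a1 had 6, the added ones named for a U6 RNA. Ranked by −log10 q, the leading Ldhb peak was that of 4.13-fold. Measured at the summit, the nearest peak lay 568 bp from the TSS at Ldha, now the downstream one, -427 bp at Ldhb, -4071 bp at Ldhd and -567 bp at Slc16a1. For Bsg, with 1 peak, the strand could not be derived and the summit distance was not run. The median fold was 4.60 over the strongest peak of each member. In an alternative chosen after seeing the data, without the Ldhd peaks of the Znrf1 intron, the median was 4.18, Ldhd had 4 peaks, and its strongest was 4.67-fold. No other alternative moved a count by over 1.5 times.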

Other observations

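The intron shared by peaks named Znrf1 and Ldhd held 18 peaks. Of 5820 introns with at least 1 peak, 29 held that many or more, and the median was 1. These counts were not scaled to intron length, and the 18 peaks ran from 43760108 to 43811062 on chromosome 19. The strongest peak of the intron, at 7.38-fold, was the one named for Ldhd.

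The only member without a peak whose promoter was rich in both G+C and CpG was Emb, at 72.0% and a ratio of 0.725. Both values lay within or above quartiles 1 to 3 of genes that have a peak beside the TSS (56.0 to 68.8% and 0.579 to 0.92). In genes without such a peak the quartiles were 44.4 to 61.2% and 0.189 to 0.757. The CpG ratio of Emb thus lay within the range of either group. In the other direction, Ldhb had a peak 467 bp upstream with a CpG ratio of 0.529, below the range of genes with such a peak and within that of genes without.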
